A study of Mus musculus with 12 samples.

Results

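The nuclear genes for the subunits of the mitochondrial respiratory chain and ATP synthase were followed through 12 RNA libraries of mesenchymal stem cells grown from mouse bone marrow. They were taken from the deposited gene table by symbol alone: Nduf with the letter a, b, c, s or v and a digit, Sdha to Sdhd, every symbol opening with Uqcr, Cox followed by a digit from 4 to 8, and every symbol opening with Atp5. Of 23358 rows, 85 met this rule, and 0 were set aside as pseudogenes by a symbol with -ps. By symbol 37 belong to complex I, 4 to complex II, 8 to complex III, 19 to complex IV and 17 to complex V. The symbols hold a few genes that build no part of the chain. Cox4nb, now Emc8, belongs to the membrane protein complex of the endoplasmic reticulum, Atp5s (now Dmac2l) and Atp5sl (now Dmac2) encode related factors that are not subunits, and Cox7a2l helps to join complexes III and IV. Ndufa4, counted here with complex I by its symbol, is now regarded as a subunit of complex IV. The subunits encoded by mitochondrial DNA are not analysed here.

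Oxidative phosphorylation passes electrons from NADH (complex I) and succinate (complex II) through complex III to oxygen at complex IV, and complex V, the ATP synthase, makes ATP from the proton gradient this builds. Most subunits are encoded in the nucleus by genes scattered over many chromosomes, made in the cytosol and imported. Their promoters are known for sites of NRF1, of ETS-family factors such as GABP, of the estrogen-related receptors and of YY1, and the coactivators PGC-1α and PGC-1β (Ppargc1a and Ppargc1b) act through several of these factors. In marrow stromal cells mitochondrial content is known to rise when the cells become fat cells.

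All cells were adherent stromal cells of mouse marrow, grown in 10% serum and seeded at a density of 10000 cells/cm2 1 day ahead of treatment. Ctrl cells received no compound per the labels. CytoD cells received cytochalasin D, which caps the growing ends of actin filaments, CK666 cells received CK666, an inhibitor of the branch-forming Arp2/3 complex, and CytoD_CK666 cells received both, each for 24 h. There were 3 libraries per group. The sources used here give no strain, age, sex of the mice, concentration or vehicle, and leave it unstated whether the replicates come from separate animals or cultures. The p-values therefore reflect only how far these libraries scatter, a scatter that may be technical. Levels are CPM, gene counts relative to the TMM-scaled library size; TMM is the trimmed mean of M values. Of the 10 stromal markers examined, Pdgfra, Pdgfrb, Col1a1, Col1a2, Cxcl12 and Vcam1 were at 132 CPM or more in every library. Eng reached 2.59, Lepr 1.27 and Nt5e 0.813 CPM at most, and Thy1 was at 0 in 8 of 12 libraries.

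Upstream sequences are shown for genes described below, chosen to compare the subunit c genes and to give a called gene of each other complex. Bases before the RefSeq start (build GRCm38.p6), outside exons of the GENCODE M21 annotation, are shown for 6 genes. They are Atp5g3 and Atp5g1, 2 of the 3 genes that encode the same mature subunit c of ATP synthase, and Ndufa6, Sdhd, Uqcr11 and Cox8a of complexes I to IV. In the deposited table Atp5g1 reaches to base 96075694 of chromosome 11, 24 bases past its GENCODE end and inside the stretch shown. For the other subunit c gene, Atp5g2, a site of 30 bases is shown. Capitals mark a complete copy, on either strand, of the NRF1 motif (GCATGCGC), the ETS motif (CCGGAAG), the estrogen-related receptor motif (AAGGTCA) or the YY1 motif (AAGATGGC).
Atp5g3 (chr2:73911327-73911526, minus strand): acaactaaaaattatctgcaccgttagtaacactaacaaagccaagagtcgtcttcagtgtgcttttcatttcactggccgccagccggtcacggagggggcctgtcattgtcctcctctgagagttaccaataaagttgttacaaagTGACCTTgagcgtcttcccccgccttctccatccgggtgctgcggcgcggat
Atp5g1 (chr11:96075671-96075831, minus strand): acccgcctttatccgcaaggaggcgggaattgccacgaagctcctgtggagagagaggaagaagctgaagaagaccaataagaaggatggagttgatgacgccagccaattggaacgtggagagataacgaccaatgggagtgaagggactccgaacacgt
Atp5g2 (chr15:102671070-102671099, minus strand): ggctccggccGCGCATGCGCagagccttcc
Ndufa6 (chr15:82354323-82354491, minus strand): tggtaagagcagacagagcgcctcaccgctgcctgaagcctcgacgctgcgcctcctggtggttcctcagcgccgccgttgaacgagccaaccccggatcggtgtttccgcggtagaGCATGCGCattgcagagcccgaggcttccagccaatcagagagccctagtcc
Sdhd (chr9:50603850-50603909, minus strand): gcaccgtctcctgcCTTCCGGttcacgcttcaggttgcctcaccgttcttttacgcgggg
Uqcr11 (chr10:80406831-80407021, minus strand): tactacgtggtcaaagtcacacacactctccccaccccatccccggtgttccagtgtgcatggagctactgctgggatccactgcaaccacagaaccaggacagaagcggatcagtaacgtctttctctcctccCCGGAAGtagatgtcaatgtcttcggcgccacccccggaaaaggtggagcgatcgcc
Cox8a (chr19:7217617-7217816, minus strand): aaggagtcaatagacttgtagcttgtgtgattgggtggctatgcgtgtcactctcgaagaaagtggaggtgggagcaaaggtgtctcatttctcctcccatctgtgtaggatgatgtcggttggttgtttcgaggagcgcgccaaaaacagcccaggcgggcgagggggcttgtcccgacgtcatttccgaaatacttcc

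Atp5g3 has an estrogen-related receptor motif starting 52 bases before its start site, read on the opposite strand. Atp5g2 has an NRF1 motif from 42 bases before, matched on both strands in overlapping positions, and the printed stretches of Atp5g1 and Cox8a hold no complete copy of the 4 motifs. Cox8a has an ETS motif that begins 5 bases before its start and runs past the end of the stretch. An NRF1 motif starts 83 bases before the start of Ndufa6. An ETS motif starts 46 bases before the start of Sdhd and 66 bases before that of Uqcr11. Further motifs lie nearer to or past the start, up to 50 bases after it, and are not complete in the printed stretches. They are an estrogen-related receptor motif of Sdhd, an NRF1 motif of Uqcr11 and another ETS motif of Cox8a. Over the 300 bases from 250 before to 50 after the first listed RefSeq start, with both strands searched, 67 tested genes of the chain had an entry. The NRF1 motif was in 14.93% of them, against 5.4% of the 9560 promoters of tested genes, and the YY1 motif in 14.93% against 4.57%. The receptor motif was in 11.94% against 3.05%, and the ETS motif in 22.39% against 17.46%. CCAAT was in 44.78% against 39.23%, and the GC box GGGCGG in 40.3% against 64.09%. These are matches of letters in a window and show no binding.

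The library sums of gene counts ran from 48930210 to 69269716, and every count in the table was even. A library stood apart from the rest: CK666 replicate 3 differed from CK666 replicates 1 and 2 by a median absolute log2 difference of 0.289 and 0.276 over all tested genes, against 0.126 between replicates 1 and 2. Its difference from the mean of those libraries decreased with gene length (r = -0.458 across 13534 genes, which are not independent). Respiratory chain genes are short, with a median length in the table of 679 bases against 2828.5 over all genes tested, and 55 of the 81 tested were under 1000 bases. In that library they lay a median of 0.553 above the mean of replicates 1 and 2 on the log2 scale, with 78 of 81 positive, against 0.0131 over all genes. The counts and medians of the set with CK666 alone are given with and without this library, as are the main named genes. With it left out, the fit holds 2 CK666 libraries.

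In untreated cells the ATP synthase β subunit Atp5b had the highest level per length, 607 ± 2.58 CPM per kilobase (SD, n = 3). Next came Atp5g3 for subunit c at 494 ± 3.77, Cox8a at 426 ± 17.7, Cox4i1 at 423 ± 4.26 and Ndufa4 at 399.5 ± 31.3 CPM per kilobase. The last 3 did not differ beyond their spread. Together the genes took a mean of 0.878% of the gene counts in Ctrl libraries. Only ubiquitous isoforms were abundant. Cox8c, a testis form, was at 0 in all 12 libraries and the muscle form Cox8b in 10. Cox7b2 was at 0 in 11. The lung form Cox4i2 was at 0 in the 3 Ctrl libraries and at 0.0313 to 0.169 CPM in the treated libraries. These 4 forms did not pass the filter on low counts. The other 81 were tested. If each count is taken as a separate observation, a count of 0 allows up to 3 counts. That is 0.0423 to 0.0634 CPM depending on the library, and it covers counting error alone. The gene counts took even values throughout. Had each observation been counted more than once, this limit would be higher, which was not tested. Heart and muscle forms Cox6a2 and Cox7a1 and the testis form Cox6b2 passed the filter but stayed at or under 0.851 CPM.

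CK666 alone raised genes of all 5 complexes. Of the 81 tested, 73 rose and 0 fell (edgeR quasi-likelihood test, adjusted p under 0.05, as for all calls here), where 22.5% of all tested genes were higher and 18.7% lower. The median change was 0.625 on the log2 scale, against 0.0295 over all genes. In 73 of the 81 genes, every CK666 library lay above every Ctrl library, as it did for 26.7% of all tested genes. The summed level of the 85 genes was 9367, 8922 and 9536 CPM in Ctrl libraries, against 12470, 13270 and 17800 in CK666 libraries. The groups did not overlap, and CK666 replicate 3 was the highest of all 12 libraries. Without it, 68 rose and 0 fell (background 19.4% higher), with a median of 0.407. After a correction for gene length in every library, 64 rose (background 21.5%), with a median of 0.375. With the correction and that library left out, 55 rose (background 19.9%) and Ndufa3 fell, with a median of 0.316. In each of these fits the share of raised genes was above the background share, and the median change was smaller than with all libraries. No member was lower at an unadjusted p under 0.05 in the fit of all libraries (0 of 81), and DESeq2 also called 0 lower.

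**Figure D1:**
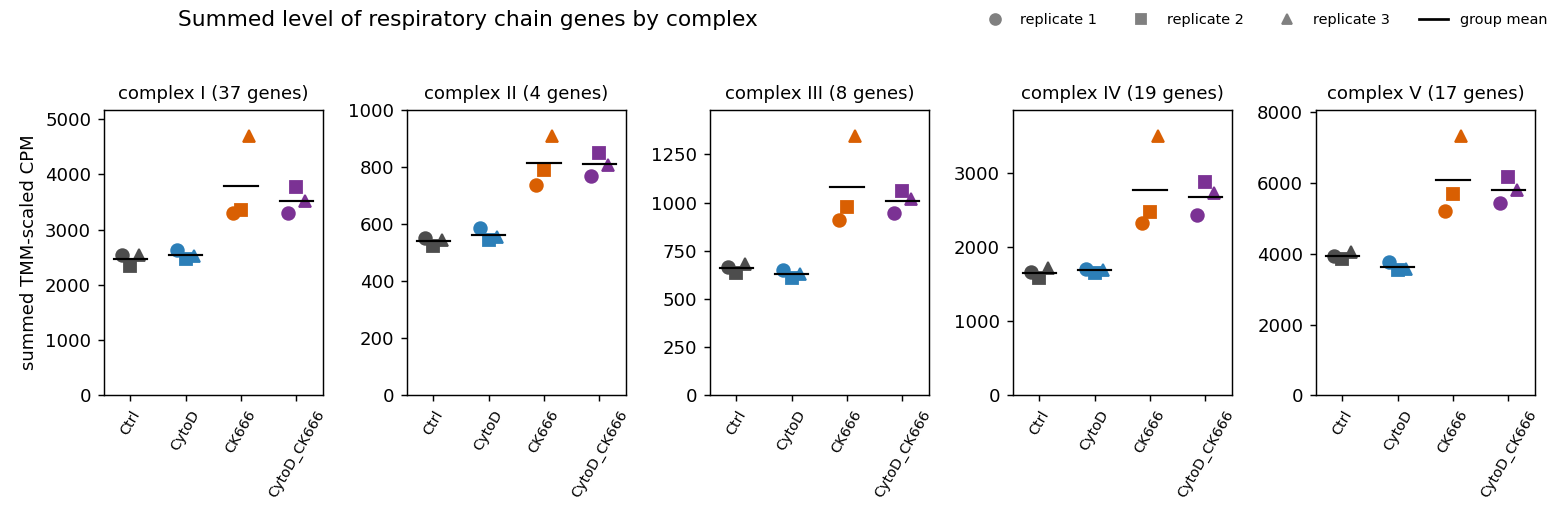
Summed level (TMM-scaled CPM, linear axis from 0) of the genes of each complex in each of the 12 libraries, with replicates as symbols and group means as lines. CK666 and CytoD_CK666 libraries lie above all Ctrl and CytoD libraries in all 5 complexes, and the triangle for CK666 replicate 3 is the highest point in each.

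Markers of fat cells were also higher in these libraries. All 9 tested adipocyte markers rose with CK666 (median 5.7 on the log2 scale), with CytoD (3.23) and with both compounds against CytoD (2.9). Lep, the other marker of that list, was at 0 in 11 libraries. Their summed level was 603 to 630 CPM in Ctrl, 1004 to 1033 in CytoD, 2454 to 3493 in CK666 and 3366 to 4314 with both. Plin4, at 521.6 CPM or more in every library, made up most of the sum in Ctrl. Adipoq was at 17.7, 15.3 and 15.6 CPM in Ctrl, 146, 154 and 158 CPM in CytoD and 445, 600.5 and 765 CPM in CK666. Whether more fat cells, or more of these transcripts per cell, are part of the rise of respiratory genes was not tested, and in bulk RNA fewer cells of a type and less RNA per cell cannot be told apart. Ucp1, which uncouples respiration in brown fat, was at 0 in all 12 libraries, and Cidea, Dio2 and Elovl3 were at or below 0.118 CPM. The related genes Ucp2 and Ucp3 were low but higher in CK666. Ucp2 was at 0.489, 0.381 and 0.413 CPM in Ctrl, 0.867, 1.08 and 1.47 in CK666 and 0.333, 0.451 and 0.318 with both. Ucp3 was at 0.0407, 0.0846 and 0.113 CPM in Ctrl and 0.197, 0.464 and 0.219 in CK666. The summed stromal markers were 23620 to 25910 CPM in Ctrl, 29040 to 30920 in CytoD, 13430 to 14600 in CK666 and 12210 to 12920 with both, and Cxcl12, Col1a1 and Col1a2 had the highest levels in it. Of the 9 tested, 1 rose and 4 fell with CK666 (0 and 4 without replicate 3). With CytoD 4 rose and 2 fell, where 19.1% of all tested genes were higher and 18.9% lower. Macrophage markers summed to 4.53 to 9.58 CPM over all groups, with Ptprc and Emr1 at 0 in all libraries, endothelial markers to at most 0.604 CPM, and erythroid and lymphoid markers to at most 0.163 CPM.

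Each complex held raised genes. With CK666, 32 of 37 complex I genes rose with a median of 0.608 (log2), 4 of 4 of complex II with 0.621, 8 of 8 of complex III with 0.706, 13 of 15 of complex IV with 0.73, and 16 of 17 of complex V with 0.588. Without CK666 replicate 3 these medians were 0.381, 0.45, 0.525, 0.455 and 0.33, and 29, 4, 8, 13 and 14 genes rose. Differences between complexes were not tested.

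In complex I, the core of the electron path includes the flavin and iron-sulfur subunits. Ndufs1, the largest iron-sulfur subunit, was at 96.6, 93.8 and 92 CPM in Ctrl and 149, 157 and 146 in CK666. It rose by 0.68 ± 0.06 (log2 fold change ± SE, edgeR adjusted p = 4.68e-06). Its length in the table is 2927 bases, and CK666 replicate 3 was here the lowest of its group. Leaving it out gave 0.66 (adjusted p = 1.47e-06). Ndufv1, which binds NADH, was at 102, 95.7 and 96.6 CPM and then 137, 147 and 183 CPM. Its change was 0.67 ± 0.10 log2 units (SE, adjusted p = 0.000208), and 0.49 (adjusted p = 0.000118) without replicate 3. Ndufv2, also a core subunit, rose by 0.70, or by 0.49 without replicate 3. The most raised of them was Ndufs7, which carries the last iron-sulfur cluster before the quinone: 42.4, 43.9 and 48.9 CPM in Ctrl libraries, against 70.7, 78.8 and 114 in CK666 libraries, a change of 0.97 ± 0.15 log2 units (SE, adjusted p = 0.000219). It was 0.69 (adjusted p = 5.46e-05) without replicate 3. Ndufa6, an accessory subunit, rose by 0.86 and Ndufa4 by 0.56, or by 0.60 and 0.30 without replicate 3. Ndufa4 was not called with the length correction and the replicate block (0.17, adjusted p = 0.0523), nor with the correction and replicate 3 left out (0.15, adjusted p = 0.0791).

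Of the complex I genes, 5 were not called: Ndufa3, Ndufa11, Ndufa13, Ndufs5 and Ndufa4l2. Ndufa3 stood at 44.8, 35.8 and 43.9 CPM in Ctrl libraries, against 45, 38.9 and 63.5 in CK666 libraries, and the groups overlapped. Its log2 change of 0.24 had an adjusted p of 0.208 and was -0.03 (adjusted p = 0.858) without replicate 3. The log2 changes of Ndufa11 and Ndufa13 were 0.37 (adjusted p = 0.0691) and 0.38 (adjusted p = 0.0683), and 0.10 and 0.09 without that library. Ndufs5 was listed at only 0.423 to 1.63 CPM over the 12 libraries. It shares 31.1% of its 50-base stretches with BC002163, whose row overlaps it and is at 0 in every library, so the counts of Ndufs5 are uncertain.

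Complex II oxidises succinate and has 4 subunits, all nuclear. Sdha, the flavin subunit, stood at 238, 232 and 228 CPM in Ctrl libraries, against 308, 334 and 352 in CK666 libraries. It rose by 0.51 ± 0.07 log2 units (SE, adjusted p = 7.80e-05), and by 0.43 (adjusted p = 6.90e-05) without replicate 3. Sdhd, a membrane anchor, changed from 91.3, 84.3 and 96.5 CPM to 136, 148 and 183 CPM, a rise of 0.78 ± 0.10 log2 units (SE, adjusted p = 4.97e-05), or 0.61 without replicate 3. Sdhb, with the iron-sulfur clusters, and Sdhc, the other anchor, rose by 0.70 and 0.54, or by 0.48 and 0.41 without replicate 3. All 4 are longer than 1000 bases, and all 4 were also called without replicate 3 and after the length correction.

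Complex III had the small subunits Uqcr11 and Uqcr10 as its most raised members. Uqcr11 stood at 72.6, 67.8 and 80.5 CPM in Ctrl libraries, against 113, 130.3 and 202 in CK666 libraries, a rise of 1.01 ± 0.17 log2 units (SE, adjusted p = 0.000475). Its length is 436 bases, and its change was 0.68 (adjusted p = 0.000127) without replicate 3. Uqcr10 rose by 0.98, and by 0.64 (adjusted p = 8.35e-05) without that library. The core proteins Uqcrc1 and Uqcrc2 rose by 0.47 and 0.65, or by 0.26 and 0.56 without replicate 3. The Rieske iron-sulfur protein Uqcrfs1 stood at 77.9, 75.4 and 77.1 CPM in Ctrl libraries, against 105, 120.3 and 143 in CK666 libraries, a rise of 0.68 ± 0.10 log2 units (SE, adjusted p = 0.000151), or 0.51 without replicate 3. No CK666 library overlapped the Ctrl range for any of these genes.

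Of the complex IV genes, Cox4i1, the ubiquitous form of subunit IV, stood at 285, 286 and 290.5 CPM in Ctrl libraries, against 408, 469.7 and 671 in CK666 libraries. It rose by 0.85 ± 0.14 log2 units (SE, adjusted p = 0.00042), or by 0.57 (adjusted p = 6.26e-05) without replicate 3. Cox8a was at 222, 232 and 242 CPM and then 362, 411 and 525 CPM, a rise of 0.90 ± 0.12 log2 units (SE, adjusted p = 6.25e-05), or 0.69 (adjusted p = 1.82e-05) without that library. Cox5a, Cox5b, Cox6a1, Cox6b1, Cox7a2 and Cox7a2l rose by 0.54, 0.78, 0.57, 0.73, 0.78 and 0.65. Without replicate 3 these were 0.29, 0.47, 0.33, 0.43, 0.48 and 0.45, and all 6 were still called. Cox6a1 was not called after the length correction (adjusted p = 0.0503), nor was it with the correction and without replicate 3 (adjusted p = 0.085).

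The largest fitted change among the 81 genes with CK666 was that of Cox6a2, a muscle form, at a very low level. It stood at 0.122, 0.127 and 0.0376 CPM in Ctrl libraries, against 0.473, 0.851 and 0.595 in CK666 libraries, a change of 2.73 ± 0.54 log2 units (SE, adjusted p = 0.00147). Its counts were between 2 and 44 in the 12 libraries, some under even the limit of 3 counts given above for a count of 0. The fitted fold therefore depends on the prior count and is no bound. Its place, chr7:128205435-128206366 on the minus strand (coordinates of the deposited table, which match GRCm38), overlaps the integrin gene Itgad. Itgad stood at 3.01, 3.04 and 2.85 CPM in Ctrl libraries, against 34.5, 37.2 and 33 in CK666 libraries. The sources used here do not state strand-specific counting, and whether reads of Itgad are in the Cox6a2 row was not tested. The 10 muscle markers summed to 13.1 to 17.2 CPM in Ctrl and 5.59 to 7.01 CPM in CK666, with Myh1, Myh2 and Myod1 at 0 in all 12 libraries. Most of these sums came from the actin gene Acta1 (0.222 to 10.8 CPM over the 12 libraries) and from Actn3 (3.44 to 5.58 CPM). Mylpf was at 0.804 CPM at most, and the rest were at or below 0.101 CPM. Of the other low forms, Cox6b2 and Cox7a1 were not called (adjusted p = 0.155 and 0.159).

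In complex V, the catalytic β subunit Atp5b stood at 1136, 1141 and 1146 CPM in Ctrl libraries, against 1543, 1757 and 2077 in CK666 libraries. It rose by 0.65 ± 0.09 log2 units (SE, adjusted p = 0.00011), and by 0.49 (adjusted p = 3.97e-05) without replicate 3. The α subunit Atp5a1 was at 859.5, 829 and 857 CPM and then 1078, 1176 and 1347 CPM, a rise of 0.50 ± 0.08 log2 units (SE, adjusted p = 0.000285), or 0.37 without replicate 3. The most raised was Atp5o, the OSCP subunit that joins the stalk to the catalytic head: 164, 156 and 167 CPM in Ctrl, 254, 304 and 431 CPM in CK666 and a rise of 1.02 ± 0.15 log2 units (SE, adjusted p = 0.000156). Without replicate 3 it was 0.74 (adjusted p = 2.18e-05).

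**Figure D2:**
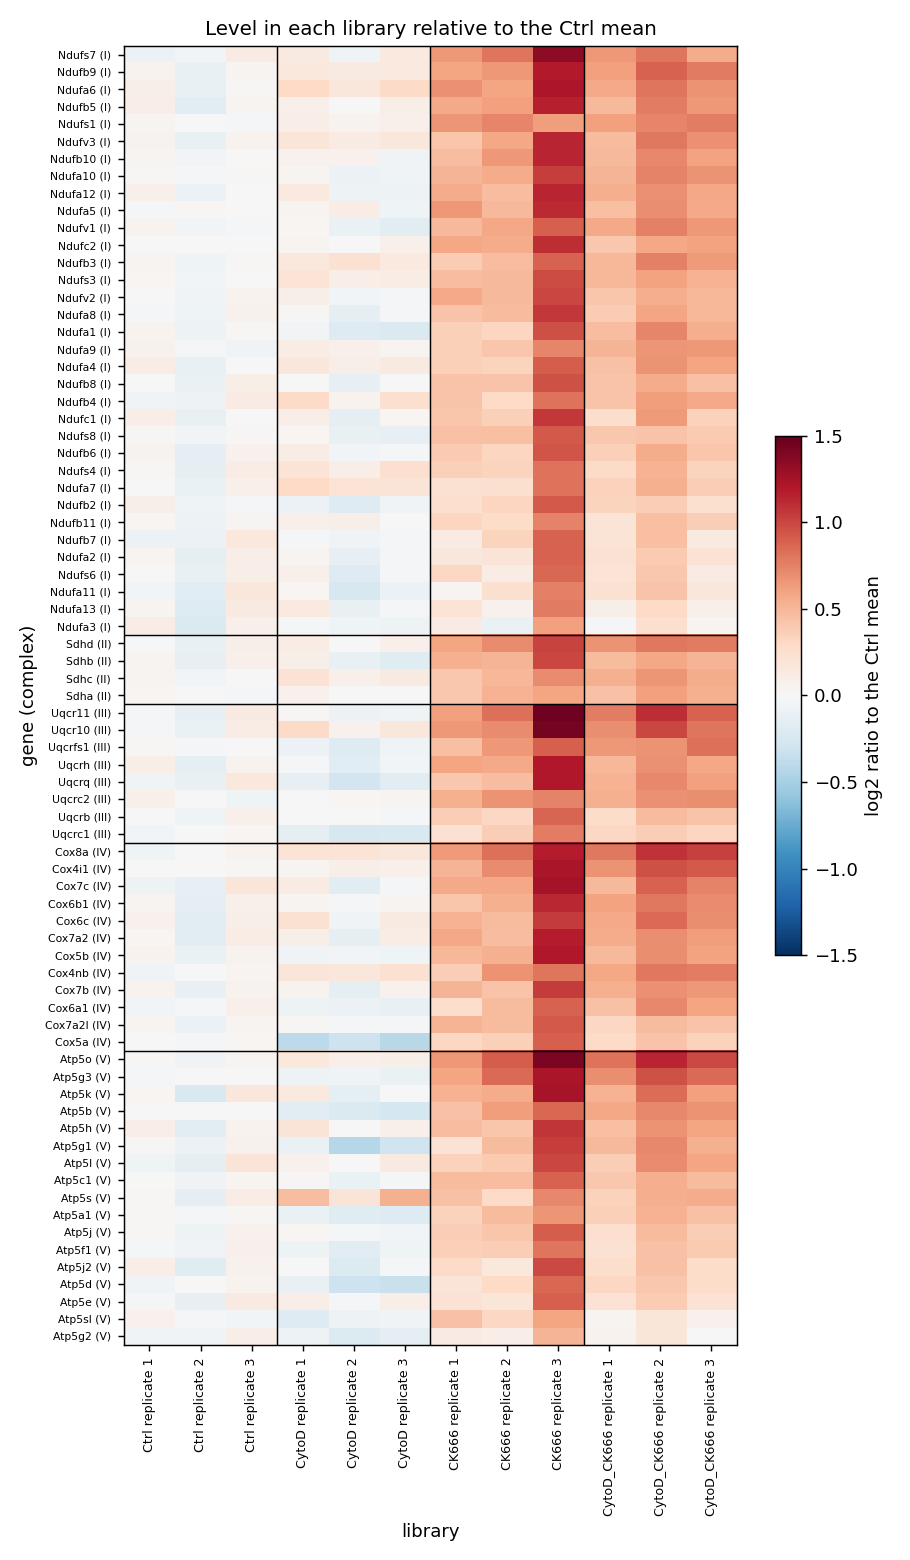
Level of 75 genes of the chain in the 12 libraries as the log2 ratio to the Ctrl mean (colour, limited to 1.5 in either direction), ordered by complex and then by mean ratio in the 6 libraries with CK666. Genes with a level of 1 CPM or less in any library are left out, as is 1 gene not reported by name. The libraries with CK666 are red over nearly the whole height, CK666 replicate 3 is the darkest column except at rows such as Ndufs1, and CytoD libraries are pale with Cox5a and Atp5g1 below and Atp5s above the Ctrl mean.

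Of the 3 subunit c genes, Atp5g3 and Atp5g1 were called with CK666 and Atp5g2 was not. Atp5g3 stood at 333, 338 and 336 CPM in Ctrl libraries, against 506, 604 and 785 in CK666 libraries, and rose by 0.91 ± 0.12 log2 units (SE, adjusted p = 8.63e-05), or 0.68 without replicate 3. Atp5g1 was at 79.6, 74.3 and 82 CPM and then 91.3, 109.5 and 161 CPM, a rise of 0.62 ± 0.16 log2 units (SE, adjusted p = 0.00909), or 0.31 without replicate 3. Atp5g2 stood at 176, 177 and 195 CPM in Ctrl libraries, against 199.6, 196 and 261 in CK666 libraries. The lowest CK666 library was just above the highest Ctrl library, and it was the only complex V gene not called: 0.26 ± 0.10 log2 units (SE, adjusted p = 0.058), or 0.07 (adjusted p = 0.418) without replicate 3. It was called without CK666 replicate 1 (0.32, adjusted p = 0.0341) or replicate 2 (0.33, adjusted p = 0.0255). Atp5g1 was not called with the length correction and replicate 3 left out (0.23, adjusted p = 0.083).

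Per kilobase, Atp5g3 held 57.4%, 58.1% and 55.5% of the summed level of the 3 genes in Ctrl, and 64.3%, 67.4% and 66.2% in CK666. It held 57.1%, 60.2% and 58.1% in CytoD and 65.6%, 67.1% and 68.3% with both compounds. The share of Atp5g2 was 32.6% ± 1.1 (SD, n = 3) in Ctrl, 32.2% ± 0.79 in CytoD, 24.3% ± 2.0 in CK666 and 22.7% ± 1.2 with both. The share of Atp5g1 stayed between 8.55% and 10.7% over all libraries. For Atp5g3 and Atp5g2 the libraries with CK666 did not overlap those without. With 3 against 3 libraries, the exact 2-sided permutation test gave p = 0.1 in each case, the smallest p it allows, and 0.225 after adjustment over the 9 comparisons of shares. A share within a library describes relative levels and does not show that any of the genes held still. CK666 replicate 3 lay between the other CK666 libraries in its share of Atp5g3 and of Atp5g2.

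**Figure D3:**
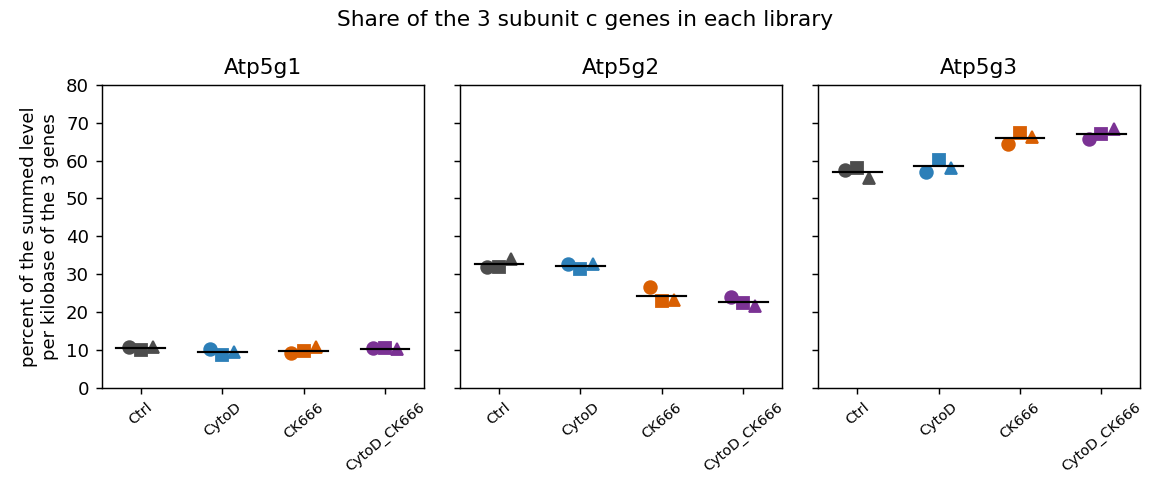
Share of each subunit c gene in the summed level per kilobase of Atp5g1, Atp5g2 and Atp5g3 (percent, axis from 0), with 1 symbol per library (circle, square and triangle for replicates 1, 2 and 3) and a line at the group mean. Atp5g3 lies at 55.5% to 60.2% in the 6 libraries without CK666 and at 64.3% to 68.3% in the 6 with it, and Atp5g2 shifts the other way.

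With CytoD alone few of the genes were called. Only Atp5s rose and Cox5a and Ndufa4l2 fell, so 1 of 81 was higher and 2 lower, where 19.1% of all genes were higher and 18.9% lower. The median change was -0.0017 on the log2 scale against 0.0211 over all genes, with 40 of 81 positive, and the summed level was 9344, 8818 and 8973 CPM, overlapping Ctrl. The sum for complex V did not overlap: it was 3953, 3845 and 4051 CPM in Ctrl libraries and 3771, 3547 and 3576 in CytoD libraries, a ratio of means of 0.919. Cox5a, a subunit of complex IV on the matrix side, stood at 82.2, 81.7 and 84.7 CPM in Ctrl libraries, against 63.3, 66.8 and 62.1 in CytoD libraries. The groups did not overlap, and the change was -0.37 ± 0.12 log2 units (SE, adjusted p = 0.0306). Atp5s stood at 7.86, 7.06 and 8.42 CPM in Ctrl libraries, against 10.7, 8.89 and 11.3 in CytoD libraries, a rise of 0.40 ± 0.13 log2 units (SE, adjusted p = 0.0273). Ndufa4l2, a form induced by low oxygen in other cells, was at 0.57, 0.677 and 0.338 CPM and then 0.164, 0.235 and 0.0722 CPM, a change of -1.72 ± 0.51 log2 units (SE, adjusted p = 0.0179). Its counts were between 4 and 32, and its span meets that of Shmt2, which fell by 0.90 (log2).

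The call of Cox5a was lost when any 1 of the 6 Ctrl and CytoD libraries was left out (adjusted p from 0.0576 to 0.0958), while its log2 change stayed between -0.40 and -0.35. That of Atp5s was lost without Ctrl replicate 1 or 2 or CytoD replicate 1 or 3 (adjusted p between 0.0771 and 0.12), and that of Ndufa4l2 without Ctrl replicate 2 or CytoD replicate 3 (adjusted p of 0.0693 and 0.0787). CK666 replicate 3 is in neither group of this comparison but bears on the spread, the scaling and the filter of the fit. Without it, 6 genes were higher and 8 lower with CytoD (background 24.3% and 26.1%). The 8 lower without that library were Cox5a, Uqcrc1, Uqcrq, Ndufa4l2 and 4 of complex V, Atp5a1, Atp5b, Atp5d and Atp5g1. With the 6 Ctrl and CytoD libraries fitted alone, 14 were higher and 10 lower (background 28.0% and 28.1%). Atp5b was at 1016, 979 and 948 CPM in CytoD, below every Ctrl library. Its change of -0.22 had an adjusted p of 0.0766 in the fit of all 12 libraries and 0.00462 without CK666 replicate 3. The shares of the set were below the background in each of these fits. The 6 higher were Atp5s, Sdhc, Ndufs5, Ndufa6, Ndufa7 and Ndufb3. These lists were named after their values were seen.

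With CytoD present, CK666 was again accompanied by a rise, in a comparison that does not hold CK666 replicate 3. Between CytoD_CK666 and CytoD, 62 of 81 rose and 0 fell (background 15.8% higher and 14.3% lower), with a median of 0.524 against 0.0161 over all genes. In 75 of the 81, every library with both compounds lay above every CytoD library, as for 29.2% of all genes. The summed level was 12870, 14720 and 13860 CPM with both compounds. After the length correction 61 rose (background 17.8%), with a median of 0.415. Without CK666 replicate 3, which is in neither group, 72 rose with a median of 0.506 (background 21.9%) and Cox6b2, at 0.106 to 0.369 CPM in these libraries, fell. By complex, 25 of 37, 4 of 4, 8 of 8, 13 of 15 and 12 of 17 genes of complexes I to V rose, with medians of 0.454, 0.549, 0.666, 0.654 and 0.494. Ndufs1 was at 101, 97.5 and 99.2 CPM in CytoD and 144, 157 and 161 CPM with both, a rise of 0.63 ± 0.06 log2 units (SE, adjusted p = 1.60e-05). Atp5b was at 1705, 1885 and 1824 CPM with both, above every CytoD library, a rise of 0.88 ± 0.09 log2 units (SE, adjusted p = 1.86e-05). Uqcr11 and Atp5g3 rose by 0.97 and 0.92 log2 units (adjusted p = 0.000962 and 0.000137). Atp5o, Atp5g1, Uqcrfs1 and Uqcrq rose by 0.88, 0.86, 0.83 and 0.81, and Cox6a2, with the limits named above, by 2.69. Cox5a, lowered by CytoD, was at 101, 111 and 105 CPM with both, above every Ctrl library. Atp5g2 was not called (0.21, adjusted p = 0.14), but was without CK666 replicate 3 (0.20, adjusted p = 0.0195). Ndufa4 (0.44, adjusted p = 0.0219) lost its call without CytoD replicate 2 or 3 or without replicate 2 or 3 of both compounds (adjusted p from 0.063 to 0.0837).

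**Figure D4:**
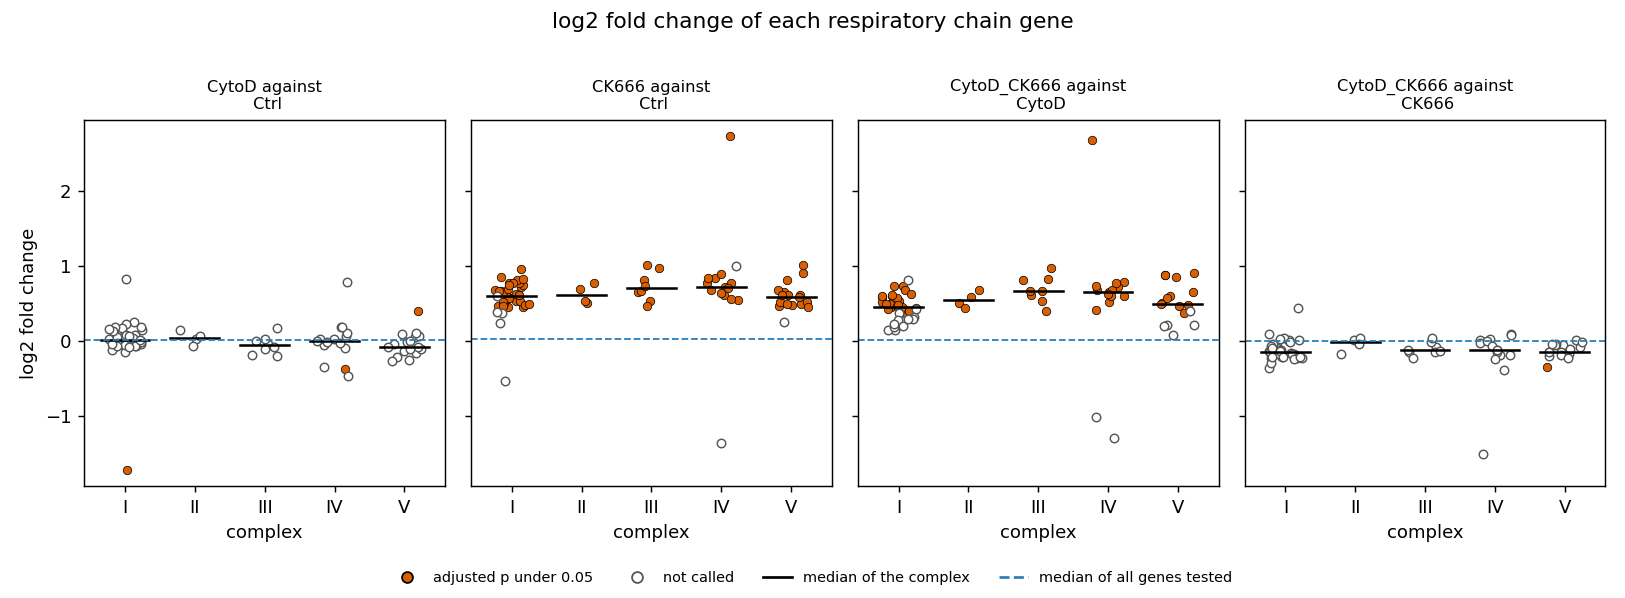
log2 fold change of each tested gene by complex in 4 comparisons, with called genes filled, medians of each complex as black lines and the median of all tested genes as a dashed line. Nearly all points lie above the dashed line where CK666 was added, with or without CytoD. They lie around it where CytoD was added to untreated cells and mostly below it where CytoD was added to CK666 (16 of 81 changes positive). The outlying points are the low-level genes Cox6a2, Cox6b2, Cox7a1, Ndufa4l2 and Ndufs5.

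Against untreated cells, both compounds together raised 66 of 81 and lowered 0 (background 24.4% higher and 21.6% lower), with a median of 0.573, and 74 rose without CK666 replicate 3 (background 28.1%). This comparison shares its Ctrl libraries with that of CK666 alone. Cox4i1 was at 459.5, 556 and 545 CPM with both compounds and rose by 0.86 ± 0.14 log2 units (SE, adjusted p = 0.00027), Cox8a by 0.97 and Atp5o by 0.99. Between both compounds and CK666 alone, 0 were higher and only Atp5sl was lower (background 4.43% and 7.17%). The median was -0.13, with 16 of 81 positive, against 0.0039 over all genes. It turned to 0.10 without CK666 replicate 3 and to 0.032 after the length correction with all libraries kept, so its direction depended on the setting. Atp5sl was at 11.6, 10.6 and 13 CPM in CK666 and 8.84, 9.73 and 8.96 CPM with both, a change of -0.35 ± 0.09 log2 units (SE, adjusted p = 0.0298), and -0.26 (adjusted p = 0.0734) without CK666 replicate 3. Its call was also lost without Ctrl replicate 3, CK666 replicate 1 or any library with both compounds (adjusted p from 0.0534 to 0.113). At an unadjusted p under 0.05, 0 genes were higher and 3 lower, and DESeq2 called 0 higher and 1 lower.

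The test of the interaction, which asks whether the change with CytoD differs in the presence of CK666, called 0 of 81 genes in either direction with all libraries (background 6.63% higher and 7.67% lower). At an unadjusted p under 0.05, 0 were higher and 3 lower, and DESeq2 called 0 higher and 1 lower, Cox6b2. The median of the interaction was -0.12. It turned to 0.027 after the length correction, and to 0.10 when CK666 replicate 3 was left out. Then 6 genes were higher with both compounds than with CK666 alone (background 7.13%), Ndufb3, Ndufa1, Ndufa4, Ndufa9, Cox4i1 and Cox6b1, and 9 had a positive interaction (background 14.1%). The 9 were Ndufa1, Uqcrc1, Uqcrfs1, Uqcrq, Cox5a, Cox6a1, Atp5b, Atp5d and Atp5g1. For Atp5b the interaction was 0.23 (adjusted p = 0.264) with all libraries and 0.37 (adjusted p = 0.00735) without that library, and for Cox5a it was 0.18 (adjusted p = 0.533) and 0.42 (adjusted p = 0.00291). In both cases the level with CytoD alone was below Ctrl and that with both compounds was close to or above CK666 replicates 1 and 2. The share of 9 in 81 was under the background share. The genes were named after their values were seen.

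**Figure D5:**
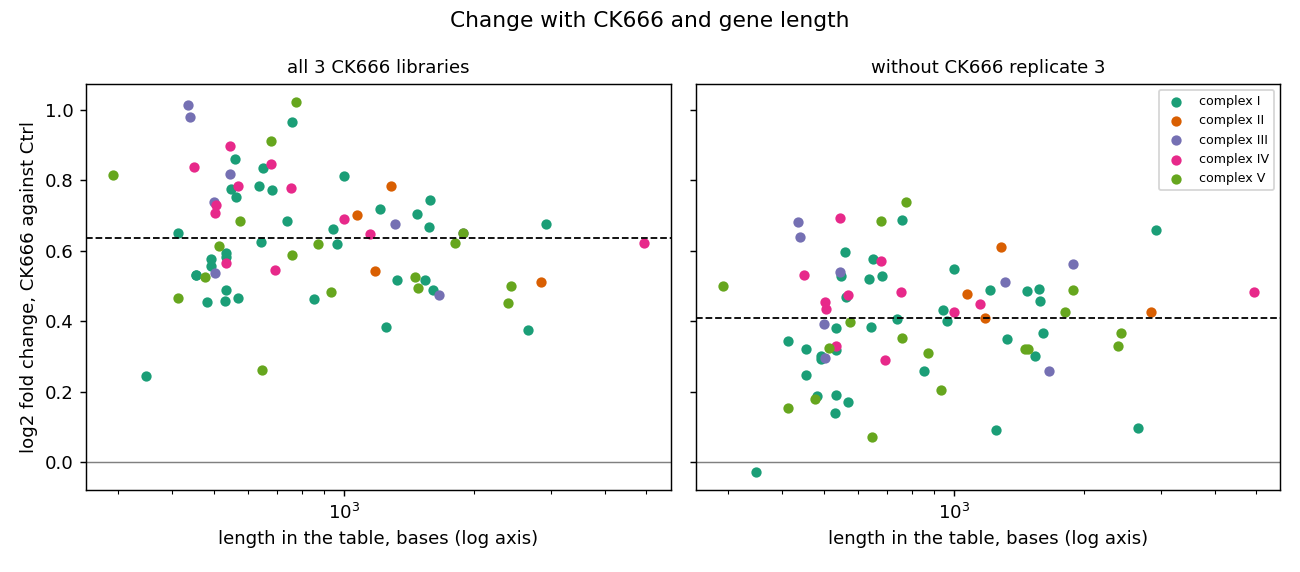
log2 fold change with CK666 against gene length (log axis, bases) for the 76 genes with a mean above 1 CPM in Ctrl, with all CK666 libraries at left and without replicate 3 at right, the dashed lines marking medians of 0.637 and 0.408. Without that library the points move down, those under 1000 bases more than the rest, and nearly all stay above 0.

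Length was examined within the set. With all libraries, 49 of 55 genes under 1000 bases rose with CK666 with a median of 0.649, and 24 of 26 longer genes with a median of 0.622. Without replicate 3 the counts were 44 and 24 and the medians 0.393 and 0.427. With both compounds against CytoD, 41 of 55 and 21 of 26 rose, with medians of 0.534 and 0.517. The medians of the longer and the shorter genes lay close together in each of these fits, and their difference was not tested.

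Other gene lists were read from the same fits, by count and median beside the background already given. The 83 tested cytosolic ribosomal protein genes have a median length of 703 bases. With CK666, 29 rose and 0 fell with a median of 0.302, but without replicate 3 only 3 rose and the median was 0.047. With both compounds against Ctrl, 2 rose and 4 fell. With CytoD, 1 rose and 40 fell, among them Rps2 at 1330, 1241 and 1329 CPM in Ctrl libraries, against 898, 772 and 806 in CytoD libraries. Of 76 mitochondrial ribosomal protein genes, 56 rose with CK666 and 0 fell (median 0.381), 43 rose without replicate 3 (median 0.191), and 43 rose with both compounds against CytoD. The most raised was Mrps6, which also rose with CytoD alone (by 1.02).

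Many genes that act beside the chain were raised as well. Of the 10 electron carriers and subunits outside the symbol rule, 8 rose with CK666 and 0 fell (9 and 0 without replicate 3). Cytochrome c1 (Cyc1), the heme subunit of complex III, stood at 85.7, 90.1 and 94 CPM in Ctrl libraries, against 137, 184 and 229 in CK666 libraries, a rise of 1.03 ± 0.14 log2 units (SE, adjusted p = 8.85e-05), or 0.79 (adjusted p = 4.22e-05) without replicate 3. Cytochrome c (Cycs) rose by 0.87 and the carrier protein Ndufab1 by 0.95, or by 0.63 and 0.72 without replicate 3. Of 46 tested assembly factors of the 5 complexes, 34 rose and 1 fell (28 and 1 without replicate 3). Atpaf2, a chaperone of the ATP synthase head, stood at 17.5, 15.1 and 17.5 CPM in Ctrl libraries, against 31.5, 41.6 and 46.8 in CK666 libraries, a rise of 1.26 ± 0.12 log2 units (SE, adjusted p = 5.65e-06). Foxred1, an assembly factor of complex I, rose by 0.94, and Cox18, which inserts a complex IV subunit into the membrane, fell by 0.53. With both compounds against CytoD, 8 of the 10 carriers and 20 of the 46 assembly factors rose. Of 13 genes of the citric acid cycle, 12 rose with CK666, 11 without replicate 3, and 12 with both compounds against CytoD. Their median length is 2243 bases, and Idh3a, the catalytic subunit of isocitrate dehydrogenase, stood at 98.1, 102 and 104 CPM in Ctrl libraries, against 236, 264 and 260.4 in CK666 libraries, a rise of 1.32 ± 0.07 log2 units (SE, adjusted p = 4.83e-08). Of 16 genes for mitochondrial transport, import and chaperones, 13 rose with CK666 and 0 fell (11 and 0 without replicate 3). With CytoD 8 fell and 0 rose (12 and 0 without that library), the 8 including Phb2 (-0.35) and Vdac1 (-0.31). The ADP/ATP carrier Slc25a5 rose by 1.07 with CK666, or by 0.86 without replicate 3.

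Of 14 tested regulators, 7 rose and 3 fell with CK666 (7 and 3 without replicate 3). Ppargc1b, the coactivator PGC-1β, was at 3.01, 3.17 and 3.19 CPM in Ctrl, 3.86, 4.56 and 5.42 CPM in CytoD, 14.3, 22.1 and 12 CPM in CK666 and 14.8, 16.9 and 17.5 CPM with both. It rose by 2.36 ± 0.20 log2 units (SE, adjusted p = 2.02e-06) with CK666, by 2.50 (adjusted p = 2.27e-07) without replicate 3, and by 0.56 ± 0.21 log2 units (SE, adjusted p = 0.049) with CytoD. Its relative Ppargc1a was at or below 0.141 CPM in all 12 libraries and was not tested. Esrra, the estrogen-related receptor α, stood at 30.6, 29.8 and 32.5 CPM in Ctrl libraries, against 38.8, 42.5 and 56.5 in CK666 libraries, a rise of 0.57 ± 0.11 log2 units (SE, adjusted p = 0.00119), or 0.35 without replicate 3. Nrf1 was at 31.3, 33.1 and 32.2 CPM and then 27.4, 29.5 and 26.9 CPM, a fall of 0.20, and the related coactivator Pprc1 and the GABP subunit Gabpb1 fell by 0.45 and 0.34. The mitochondrial transcription factor Tfam rose by 0.19. Nrip1 and Pparg rose by 1.49 and 0.91, or by 1.78 and 0.80 without replicate 3. Nrip1 and Pparg were also higher with CytoD alone. Nrip1 was at 27.7, 25.5 and 25.8 CPM in Ctrl and 53.5, 65 and 62.6 in CytoD. Pparg was at 144, 133 and 131 CPM in Ctrl and 207, 207 and 203 in CytoD. Esrra and Tfam were named for their known role after their values were seen. The levels of regulators were not linked to those of the chain genes by a test.

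The short genes of the set are also exposed to uncertain assignment of reads. Of the 85, 11 share over 20% of their 50-base stretches with another annotated gene, among them Atp5l (68.5%), Atp5h (47.9%), Uqcrb (43.2%) and Ndufb4 (37.0%), and 47 share none. These 4 changed with CK666 by 0.61, 0.68, 0.54 and 0.53 (0.33, 0.40, 0.30 and 0.32 without replicate 3), within the range of the other genes of their complexes. Rows for the overlapping genes Wdr77 (with Atp5f1), Gabpa (with Atp5j) and Shmt2 (with Ndufa4l2) held counts of their own, and how reads in the overlaps were divided was not tested.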

How the data were processed

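RNA of 12 libraries was sequenced, 3 per group. Per the submitters' processing notes, CASAVA 1.9, TopHat and HTSeq were used. Those notes name the build hg19, whereas the gene symbols and coordinates in the table are of mouse and match GRCm38. The authors deposited gene counts and RPKM values per library in 1 table. Every deposited count was even, and tests on halved counts are among the alternatives. The RPKM were used only to check the counts and lengths.

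Counts were tested with the quasi-likelihood test of edgeR 4.0.16 (R 4.3.3, TMM scaling, filterByExpr with a minimum count of 10, 1 model for the 4 groups). P-values were adjusted by Benjamini-Hochberg over 13534 genes, with calls at an adjusted p under 0.05. Levels are TMM-scaled CPM without a prior count, per kilobase of the table's length where genes are compared. The smallest chi-square per degree of freedom within a group was 11.36, so libraries of a group differed by more than sampling noise.

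Named genes are the 8 most raised and 8 most lowered called members of each comparison, fixed catalytic subunits and tissue forms, the 5 highest levels in Ctrl, members not passing the filter, and up to 3 genes per list and direction. The members and lists were chosen with earlier results of these data known. The length correction removed from each library a lowess trend (span 0.3) on log length. The correction with CK666 replicate 3 left out was chosen after seeing the data. Promoter sequences are from RefSeq. The script was tested on simulated data. 1 member is counted in all totals but not reported by name here.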

Additional observations from a re-analysis of the deposited data

How the results depend on the processing

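The rise of the set with CK666 kept its direction under each setting tried, with fewer genes called after the length correction: 73 genes rose with RLE size factors, with DESeq2, with the replicate block and with halved counts, 74 without a filter on low counts, 72 with a filter of CPM above 1 in at least 3 libraries, 66 with only the groups compared, 64 with the length correction, 63 with the block and that correction, and 55 with the correction and CK666 replicate 3 left out, where 1 gene fell. Leaving out 1 library at a time gave 66 to 76 rising and 0 to 0 falling. With both compounds against CytoD, leaving out 1 library gave 50 to 72 rising and 0 to 1 falling, and 1 fell with the length correction, with and without the block, and with CK666 replicate 3 left out. With both compounds against Ctrl these ranges were 54 to 74 and 0 to 1. With CytoD alone, the 1 rising gene became 2 without a filter, with the CPM filter, with DESeq2 and with the replicate block, 14 with only the groups compared, 7 with the length correction, 8 with the block and correction, and 13 with the correction and CK666 replicate 3 left out, with 0 to 6 when 1 library was left out. The 2 falling became 1 with the CPM filter, 10 with only the groups compared, 5 with the length correction, 5 with the block and correction, 9 with the correction and CK666 replicate 3 left out, and 0 to 8 without 1 library. With both compounds against CK666, the 0 higher became 6 with the length correction, 7 with the block and correction, 5 with the correction and CK666 replicate 3 left out, and 0 to 6 without 1 library. The 1 lower became 0 without a filter, with only the groups compared, and with the correction and CK666 replicate 3 left out, and 0 to 2 without 1 library. For the interaction, the 0 higher became 3 with the correction, 4 with the block and correction, 7 with the correction and CK666 replicate 3 left out, and 0 to 9 without 1 library, and the 0 lower became 1 with DESeq2 and with the block and correction, and 0 to 1 without 1 library. The log2 change of Cox6b1 between both compounds and CK666 turned from -0.02 (adjusted p = 0.929; -0.16 without CK666 replicate 1) to 0.24 without CK666 replicate 3 (adjusted p = 0.0419) and to 0.24 with the correction as well (adjusted p = 0.0341). The cause of these shifts was not tested. Over 188 results for single genes, 3954 values under another setting stayed on the same side of the threshold, 64 gained a call and 43 lost one. Another 2, both of Cox6b1, changed sign and gained a call. Changes of sign among values that stayed uncalled were not counted. Same-numbered libraries deviated together weakly at most (correlations from -0.0789 to 0.256, 4 of 18 pairs above 0.1). The highest were of replicate 1, at 0.256 for CytoD with CytoD_CK666 and 0.176 for CK666 with CytoD_CK666. The numbers were not treated as pairs in the main fit. The replicate block changed the 1 rising gene with CytoD to 2 and the 66 with both compounds against Ctrl to 65.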
